A study of Mus musculus with 8 samples.

Results

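The 10 genes described here belong to MHC class II antigen presentation: H2-Aa, H2-Ab1, H2-Eb1, Cd74, H2-DMa, H2-DMb1, H2-DMb2, H2-Oa, H2-Ob and Ciita. They were taken as a named list, 10 of the 30406 genes that all 8 single-cell RNA-seq libraries shared. Cd74 lies on chromosome 18, Ciita on chromosome 16 and the rest on chromosome 17. The libraries held leukocytes sorted from adult male C57BL/6 mice (C57BL/J in the sample titles) as CD45-positive cells that an antibody injected into the blood stream had not labelled (CD45iv-CD45+). Control mice gave 1 library each of brain parenchyma, pia and dura. The authors' methods name naive mice as the controls of the single-cell data, whereas their figure legends name sham-operated mice. For control pia the title reads brain parenchyma whereas the source and tissue labels read pia mater, and pia was used. Mice after transient middle cerebral artery occlusion (MCAO), a model of ischemic stroke, gave 2 brain libraries, 1 pia library and 1 dura library at 24 h, and 1 brain library at 72 h. The number of mice in each library, and the length of occlusion behind it, were not found in the labels. The authors' cell annotation placed cells in 21 clusters, and unique molecular identifiers (UMIs, each standing for 1 captured transcript) were summed per library and cluster and scaled to a total of 1000000 UMIs (CPM). Sums of fewer than 30 cells were left out of the comparisons.

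MHC class II molecules present peptides from engulfed material to CD4 T cells. An alpha and a beta chain pair in the endoplasmic reticulum with the invariant chain, which keeps the groove closed until the complex reaches an acidic compartment. There the DM heterodimer exchanges the remnant of the invariant chain for peptide, the DO heterodimer restrains DM, and the transactivator CIITA switches the whole group on. Dendritic cells and B cells carry class II constitutively, macrophages vary in it, and microglia in the healthy brain show little.

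Of these genes, 8 lie within the class II region of chromosome 17 between 34092340 and 34316674 (GRCm38), in the order H2-Oa, H2-DMa, H2-DMb2, H2-DMb1, H2-Ob, H2-Ab1, H2-Aa and H2-Eb1. H2-Aa is on the minus strand and the other 7 are on the plus strand. H2-DMb1 and H2-DMb2 are neighbouring, closely similar copies, so the split of reads between them is uncertain.

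RefSeq promoter windows, from 250 bases before to 50 bases after a gene's start, were matched for 7 of the 10 genes. The class II promoters are known for an X box and a Y box that the regulatory complex around CIITA occupies, and the windows were searched on both strands for GCAAC, the first bases of the X box, and for ATTGG, the Y box. GCAAC followed by ATTGG at 20 to 50 bases on the gene's own strand was found in 4 of the 7 genes, against 0.667% of all 32851 windows. The 4 sequences below are shown because their spacing is nearly equal: the 2 motifs start 33 bases apart in H2-Aa and H2-Oa, 32 in H2-Eb1 and 30 in H2-Ob. Each is the 120 bases before the RefSeq start, 5′ to 3′ on the gene's strand, and capitals mark every match to either motif on either strand. H2-Aa is chr17:34287824-34287943 (minus strand), H2-Eb1 chr17:34305747-34305866, H2-Oa chr17:34092259-34092378 and H2-Ob chr17:34238785-34238904, all in GRCm38.p6.
H2-Aa: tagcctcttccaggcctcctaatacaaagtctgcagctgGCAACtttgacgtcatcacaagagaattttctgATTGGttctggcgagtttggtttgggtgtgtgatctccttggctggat
H2-Eb1: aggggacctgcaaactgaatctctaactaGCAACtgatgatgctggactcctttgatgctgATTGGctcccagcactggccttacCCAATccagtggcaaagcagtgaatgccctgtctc
H2-Oa: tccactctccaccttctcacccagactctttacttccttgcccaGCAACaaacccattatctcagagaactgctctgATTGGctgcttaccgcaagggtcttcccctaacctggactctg
H2-Ob: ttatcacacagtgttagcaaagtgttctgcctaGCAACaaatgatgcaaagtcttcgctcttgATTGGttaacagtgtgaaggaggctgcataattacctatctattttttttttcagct
The neighbours H2-DMb1 (chr17:34153071-34153190) and H2-DMb2 (chr17:34145129-34145248) held ATTGG but not GCAAC in their windows. They are shown because they let the similarity of the copies be read directly.
H2-DMb1: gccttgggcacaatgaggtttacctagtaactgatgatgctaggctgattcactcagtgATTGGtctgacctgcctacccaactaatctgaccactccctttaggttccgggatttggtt
H2-DMb2: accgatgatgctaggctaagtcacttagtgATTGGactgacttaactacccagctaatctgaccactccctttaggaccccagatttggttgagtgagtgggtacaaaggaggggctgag
GCAAC alone occurred in 35.2% and ATTGG alone in 37.4% of all windows on either strand, and a match describes letters only.

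The libraries had 6591898 to 20754181 UMIs, and the median annotated cell had 1072 to 2501. Cluster names were checked against defining markers. Cd79a, a chain of the B cell receptor complex, averaged 1999 CPM in Bc and at most 3.44 CPM in Macro_2, mDC1 or mDC2. Clec9a, a receptor of cross-presenting dendritic cells, averaged 52.8 CPM in mDC1 and 2.17 in mDC2, where Cd209a averaged 2899 CPM. Macro_2 carried Lyz2 (14944 CPM) and C1qa (2567 CPM). CAM_1 and CAM_2, named as CNS-associated macrophages, carried microglial transcripts in the brain libraries: 5 microglial markers, all detected in each sum, totalled 2067 to 24975 CPM in CAM_1 from brain and 664 to 1247 CPM in CAM_1 from pia and dura.

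The libraries did not form a single set. Brain 24 h replicate 2 and brain 72 h listed 31053 genes in place of 32285, and each shared 0 to 2 cell barcodes with any of the other 6 libraries, while the 15 pairs among those 6 shared 12 to 43. UMI ratios between class II genes of the same cells differed along this line. In Macro_2 there were 11.8 to 17.3 UMIs of Cd74 for each UMI of H2-Eb1 in the 6 libraries, and 1.75 and 2.61 in the other 2. The same ratio was 9.30 to 15.2 against 1.69 and 2.45 in mDC1, 11.1 to 13.2 against 1.92 and 2.45 in mDC2, and 15.4 to 28.2 against 3.19 and 4.64 in Bc. Ranges did not overlap in these 4 clusters. In mDC1, mDC2 and Bc the first set held pia and dura libraries and the second held brain libraries, so set and tissue cannot be told apart there, while Macro_2 had brain libraries in both sets. The ranges overlapped in Micro_1 and in SAMC, the latter at 21.1 and 140 against 3.31 and 36.0.

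H2-Eb1 per H2-Ab1 in Macro_2 lay at 0.294 to 0.441 in the 6 libraries and at 0.956 and 0.965 in the other 2. Ciita per H2-Ab1 lay at 0.000816 to 0.00327 and at 0.0182 and 0.0271. H2-Aa per H2-Ab1, in contrast, overlapped between the sets, at 0.765 to 0.991 and at 0.847 and 1.04. In T cells (Tc) of pia and dura the ratio of Cd74 to H2-Eb1 was 9.52 to 14.6, and in Tc at 72 h it was 2.39. H2-DMa per H2-DMb1 in Macro_2 lay at 0.587 to 1.00 in the 6 libraries and at 1.09 and 1.40 in the other 2. H2-Oa per H2-Ob in Macro_2 lay at 0.354 to 0.727 in 4 libraries of the first set and at 1.82 and 2.51. In Bc H2-DMa per H2-DMb1 overlapped between the sets, as did H2-Oa per H2-Ob in mDC2. Levels of Cd74, H2-Eb1, Ciita and the DM and DO genes should therefore be read within a set. Each test of the 10 genes is given for all libraries and for the 6 alone. The use of the 6 alone was chosen after these ratios were seen. Time and set cannot be told apart at 72 h.

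**Figure D1:**
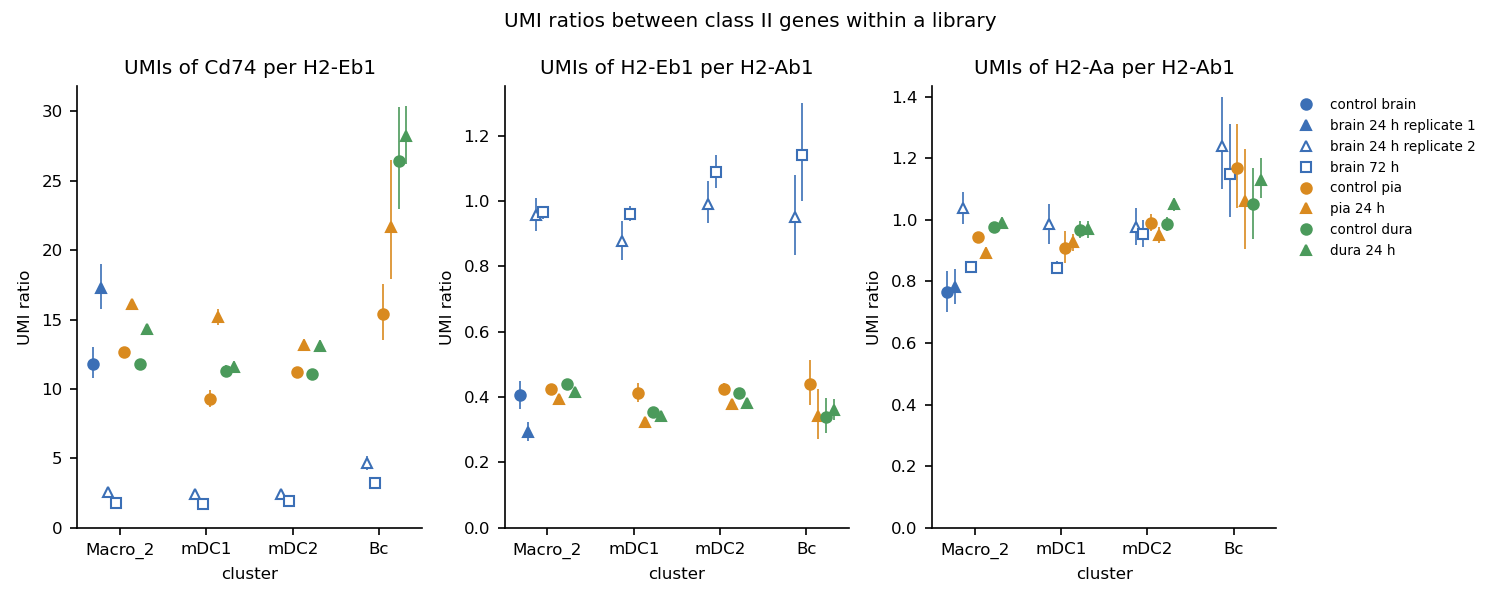
Ratio of UMIs between pairs of class II genes in 4 clusters (horizontal axis), for sums of at least 30 cells. Each point is 1 library, with tissue in colour, time in the marker's shape, and a 95% counting interval as a bar. The open markers (brain 24 h replicate 2 and brain 72 h) sit apart for Cd74 per H2-Eb1 and for H2-Eb1 per H2-Ab1, and among the others for H2-Aa per H2-Ab1.

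The peptide-binding chains and Cd74 were concentrated in a few clusters. H2-Aa, H2-Ab1 and H2-Eb1, which encode the alpha chain of I-A, the beta chain of I-A and the beta chain of I-E, and Cd74, the invariant chain, were each highest in mDC2 in 5 libraries, in Macro_2 in 2 and in mDC1 in 1. Their summed level in mDC2 was 175478 CPM (control) and 141950 CPM (24 h) in pia, and 168165 and 175936 CPM in dura. Brain 24 h replicate 2 and brain 72 h had 42594 and 38853 CPM in mDC2.

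In Macro_2 the controls had a summed level of 137445 CPM (brain), 144041 (pia) and 146160 (dura). At 24 h dura had 129009 CPM, pia 113550, brain replicate 1 had 73949 and brain replicate 2 had 37112. Brain at 72 h had 48173 CPM. The control libraries were close to each other across the tissues, and every later library lay below its own control, by most in the 2 brain libraries of the other barcode set.

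In mDC1 the 4 genes summed to 29171 CPM in brain 24 h replicate 2, 52696 in brain at 72 h, 125913 and 100183 in pia (control, then 24 h), and 105584 and 113086 in dura. In Bc the same libraries gave 13376, 17763, 67230, 41573, 23503 and 35198 CPM in that order. B cells lay below mDC1, mDC2 and Macro_2 in all 6. Clusters were made from these same counts, so the order of clusters is a description and was not tested.

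Cd74 was the most abundant of the genes by UMIs. Within the 6 libraries, Macro_2 had 94553 CPM (control) and 52495 (24 h) in brain, 100148 and 83475 in pia and 99748 and 91781 in dura. H2-Eb1 in the same libraries was 8010, 3038, 7900, 5181, 8473 and 6424 CPM. Brain 24 h replicate 1 was the lowest of the 6 for both genes.

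**Figure D2:**
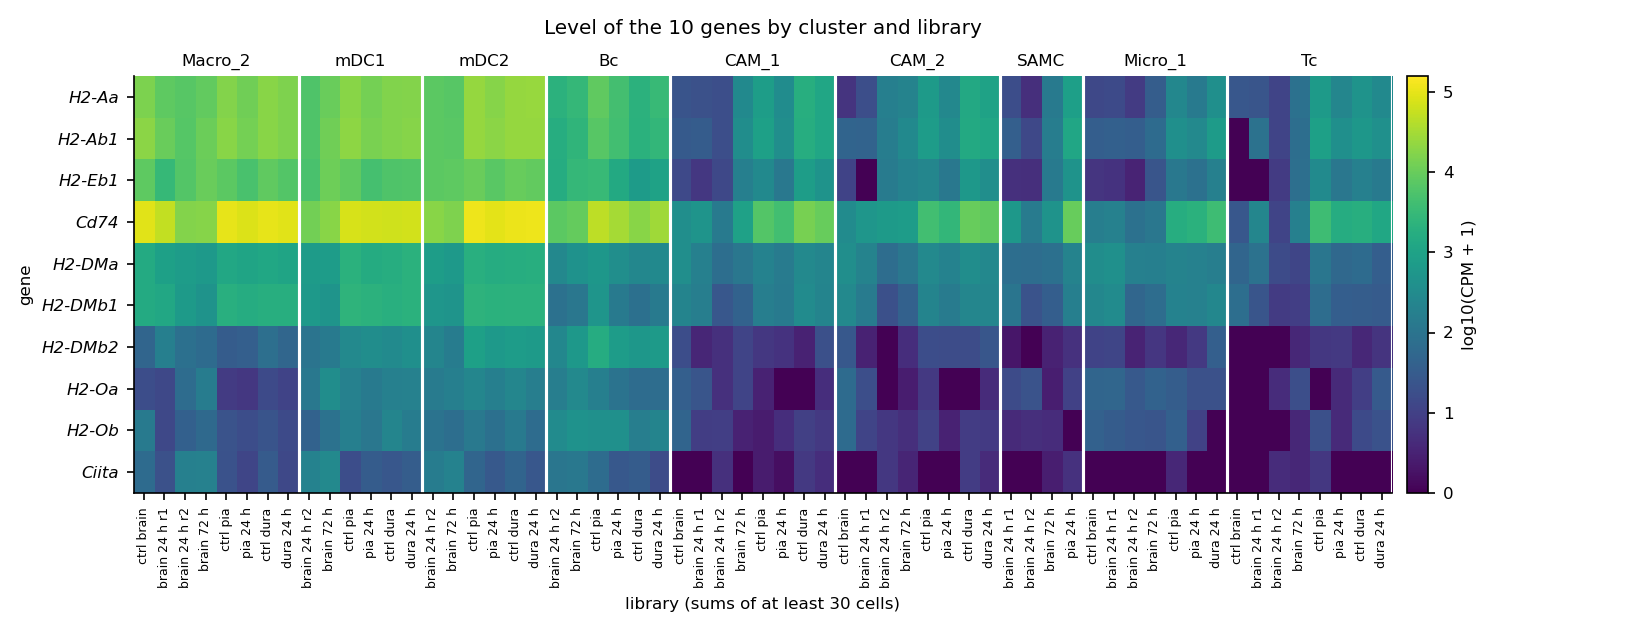
Level of each of the 10 genes (rows) as log10(CPM + 1), in sums of at least 30 cells, ordered by cluster and then library. Macro_2, mDC1, mDC2 and Bc are bright for H2-Aa, H2-Ab1, H2-Eb1 and Cd74, while H2-DMa and H2-DMb1 stay visible in Micro_1 and the CAM clusters of every library.

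The clusters Macro_2, mDC1, mDC2 and Bc together held 86.5% to 93.3% of the UMIs of H2-Aa, H2-Ab1, H2-Eb1 and Cd74 in annotated cells, in every library. In control brain this was 62 of 4297 cells (1.44%), which held 88.6% of those UMIs (95% exact interval 88.1 to 89.0%). Microglia were 86.9% of the same library's cells and held 8.87%. In control pia Macro_2 alone was 37.2% of cells and held 73.7%. The share of UMIs thus stood far above the share of cells.

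DM and DO followed other patterns. H2-DMa and H2-DMb1, the alpha and a beta chain of the peptide loader DM, were highest in mDC1, mDC2 or Macro_2 in every library. In control brain and brain 24 h replicate 1 only Macro_2 of these had at least 30 cells and could be ranked. H2-DMa in Macro_2 was 1486 CPM in control brain, 909 and 741 in brain 24 h replicates 1 and 2, 650 in brain at 72 h, 1336 and 1068 in pia (control, then 24 h), and 1250 and 1071 in dura. H2-DMb1 in Macro_2 in the same order was 1486, 1307, 677, 464, 1918, 1629, 1852 and 1826 CPM. Both were lowest in the 2 libraries set apart above.

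H2-DMb2, the other DM beta chain, was highest in Bc in 4 of the 6 libraries with a Bc sum. It measured 249 CPM in Bc of brain 24 h replicate 2, 578 in brain at 72 h, 1683 and 757 in pia (control, then 24 h), and 559 and 687 in dura. H2-DMb1 in the same B cell sums was 87.8, 115, 521, 133, 80.7 and 133 CPM. H2-DMb2 exceeded H2-DMb1 in B cells in 6 of 6 libraries, whereas in Macro_2 H2-DMb1 exceeded H2-DMb2 in 8 of 8. In mDC2 H2-DMb2 reached 658 to 883 CPM in the pia and dura libraries and H2-DMb1 2127 to 2310.

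H2-Ob, the beta chain of the DM inhibitor DO, was highest in Bc in 5 of the 6 libraries with a Bc sum. Its level there was 329, 441, 414, 399, 168 and 220 CPM in the order just given. H2-Oa, its alpha chain, did not single out B cells: Bc had 67.8 to 281 CPM, mDC1 120 to 354 and mDC2 145 to 242, and the ranges overlapped. ILC2, a cluster named for innate lymphocytes, had 109 CPM of H2-Oa in control dura (95% interval 73.5 to 155, 30 UMIs in 286 cells) and 123 in dura at 24 h (96.6 to 154, 75 UMIs in 673 cells), against 8.27 and 28.1 CPM in Tc of the same libraries. H2-Ob in ILC2 averaged 15.6 CPM over 5 libraries.

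Ciita was sparse and depended on the barcode set. In Macro_2 it was 64.6 CPM in control brain from 4 UMIs, 18.9 in brain 24 h replicate 1 from 3 UMIs, 19.6 and 11.3 in pia (control, then 24 h), and 30.2 and 12.6 in dura. The 2 libraries of the other set had 183 and 195 CPM. The same split appeared in mDC1, with 15.7 to 33.7 CPM in pia and dura and with 198 and 279 CPM in the other set. In Micro_1 Ciita had 1 UMI over 7 libraries.

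**Figure D3:**
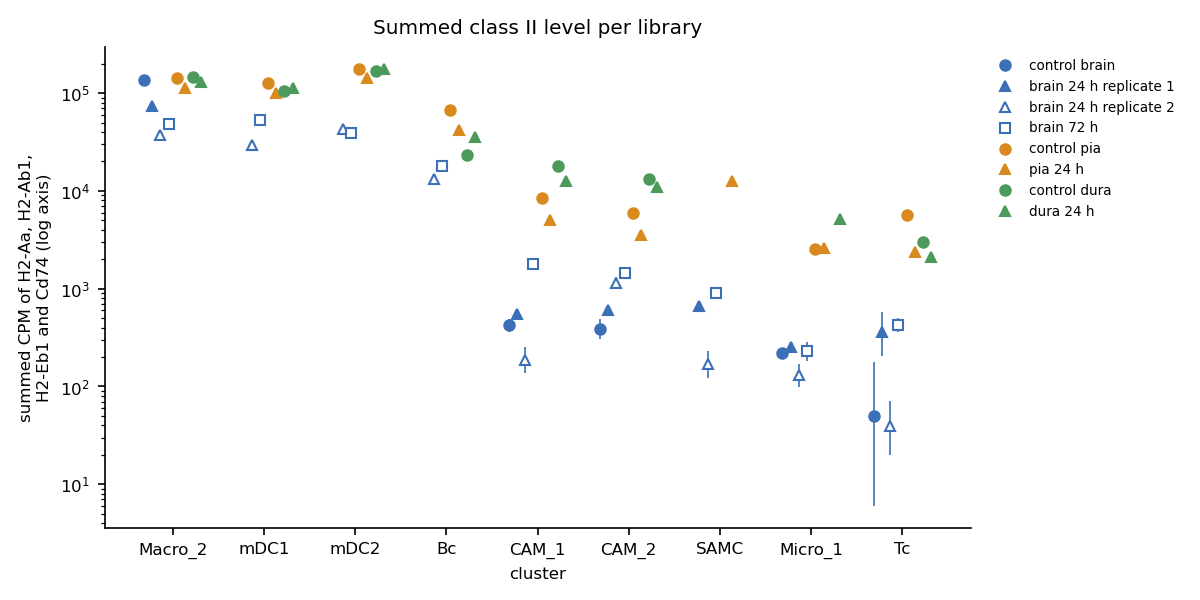
Summed CPM of H2-Aa, H2-Ab1, H2-Eb1 and Cd74 (log axis) by cluster, with 1 point per library and a 95% counting interval as a bar, for sums of at least 30 cells. Macro_2, mDC1 and mDC2 sit at 100183 CPM or more in pia and dura, whereas Tc sits between 39.5 and 425 CPM in brain and between 2117 and 5715 in pia and dura, with CAM_1, CAM_2 and Micro_1 likewise lowest in brain.

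Low levels were read against T cells of the same library, which in the mouse do not make class II, so that UMIs in Tc give the level of free RNA and mixed droplets. The summed level in Tc was 49.6 CPM in control brain, 358 and 39.5 in brain 24 h replicates 1 and 2, and 425 in brain at 72 h. It was 5715 and 2361 CPM in pia (control, then 24 h), and 3029 and 2117 in dura. The background was thus higher in every pia and dura library than in any brain library. Macro_2 exceeded Tc by 25.2-fold or more in 8 of 8 libraries.

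Micro_1, the main microglial cluster, rarely stood above Tc for the peptide-binding chains. H2-Aa in Micro_1 was 12.5 CPM in control brain, 13.4 and 6.89 in brain 24 h replicates 1 and 2, 33.5 in brain at 72 h, 260 and 138 in pia (control, then 24 h) and 388 in dura at 24 h. Its ratio to Tc was 0.374 to 1.31, with the counting interval below 1 in 3 of 7 libraries and above 1 in 0. H2-Eb1 was above Tc in 0 of 7 libraries and below in 2, H2-Ab1 above in 1 and below in 2, and Cd74 above in 4 and below in 2. H2-Aa and H2-Eb1 in this cluster were thus not shown to lie above background at this depth. In control brain and brain 24 h replicate 1 the comparison was weak, since Tc of each had 1 UMI of H2-Aa and 0 of H2-Eb1.

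The DM genes in Micro_1 did stand above Tc, in 7 of 7 libraries each. H2-DMa in Micro_1 was 346 CPM in control brain, 414 and 184 in brain 24 h replicates 1 and 2, 178 in brain at 72 h, 208 and 189 in pia (control, then 24 h) and 166 in dura at 24 h, which was 1.87 to 16.1 times Tc. H2-DMb1 was 256, 317, 50.5, 72.5, 197, 192 and 259 CPM in the same order, 2.81 to 14.2 times Tc. Within a single barcode set, H2-DMa in Micro_1 was higher in the 2 brain libraries (346 and 414 CPM) than in those of pia and dura (166 to 208), the opposite order to H2-Aa. With each cell thinned to 1000 UMIs, 29.6% of 1780 Micro_1 cells in control brain had a UMI of H2-DMa (27.4 to 31.7%; 41.1% of all 1864 cells before thinning), against 8.70% of 23 Tc (1.07 to 28.0%). These cells had medians of 1642 and 1400 UMIs before thinning.

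H2-Oa was also detected in Micro_1, at 47.6 CPM in control brain from 145 UMIs and at 52.2 in brain 24 h replicate 1 from 109 UMIs. Tc in those libraries had 0 UMIs of H2-Oa, in sums so small that a count of 0 allows a level above that of microglia. The interval lay above Tc in 2 of 7 libraries.

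**Figure D4:**
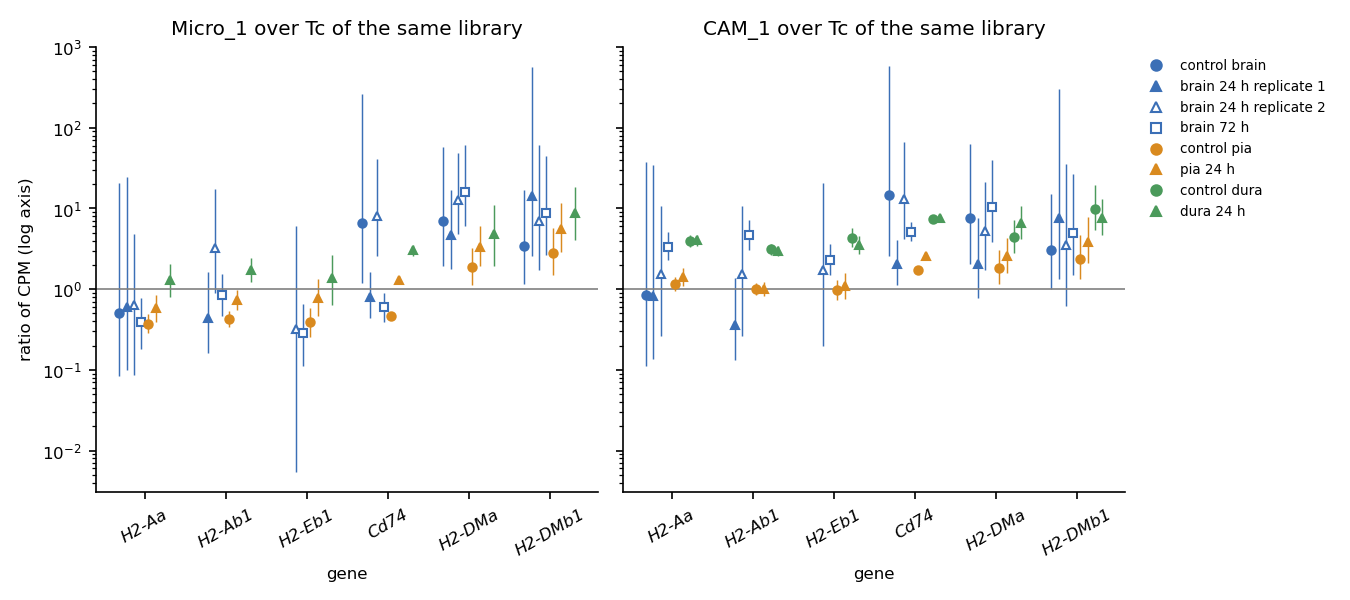
Ratio of CPM in Micro_1 (left) and CAM_1 (right) to CPM in Tc of the same library (log axis) for 6 class II genes, with 95% counting intervals as bars and the line at 1. Libraries where Tc had 0 UMIs have no point. In Micro_1 the points for H2-Aa lie from 0.374 to 1.31 and all those for H2-DMa and H2-DMb1 lie above 1, whereas in CAM_1 all points for Cd74 lie above 1.

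In CAM_1 class II levels differed by tissue. Cd74 in CAM_1 was 362 CPM in control brain, 498 and 141 in brain 24 h replicates 1 and 2, and 963 in brain at 72 h. It was 6527 and 4208 CPM in pia (control, then 24 h), and 13551 and 9783 in dura. H2-Ab1 was 28.8, 32.0, 16.6 and 347 CPM in the brain libraries and 894, 378, 1774 and 1208 in the others. Brain did not overlap pia or dura for either gene.

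In a negative binomial model over all 8 libraries (edgeR's quasi-likelihood test with Benjamini-Hochberg adjustment over all genes tested), with a call defined as adjusted p below 0.05 and at least a 2-fold change, 4 of the 9 tested members were higher in pia than in brain in CAM_1, where 2.41% of 8718 genes were called higher. On the log2 scale H2-Aa was higher by 5.03 (SE 0.51, adjusted p = 0.00439), H2-Ab1 by 4.69 (SE 0.55, adjusted p = 0.00487), H2-Eb1 by 4.57 (SE 0.51, adjusted p = 0.00439) and Cd74 by 4.25 (SE 0.67, adjusted p = 0.0132). The same 4 genes were higher in dura than in brain, where 3.14% of genes were called higher, by 6.58 for H2-Aa, 6.05 for H2-Ab1, 6.30 for H2-Eb1 and 5.43 for Cd74 (adjusted p at most 0.00564 by edgeR). H2-DMa differed by 0.04 (SE 0.58) in pia and 0.69 (SE 0.57) in dura, and was not called. The median log2 difference over the tested members was 0.36 in pia and 1.28 in dura, beside -0.12 and -0.18 over all genes. In dura, leaving out the 24 h library left 1 of the 4 called (Cd74 adjusted p = 0.119 by edgeR), and in pia Cd74 lost its call without control brain (adjusted p = 0.0909) or without pia at 24 h (adjusted p = 0.0951).

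In CAM_2, 2 of 8 tested members were higher in pia than in brain (1.14% of genes higher) and the same 2 in dura (1.40%). Cd74 differed by 3.07 (SE 0.62) in pia and 4.39 (SE 0.63) in dura, and H2-Ab1 by 2.98 (SE 0.66) and 4.21 (SE 0.65) on the log2 scale. Without control brain the pia differences were 2.53 for Cd74 and 2.31 for H2-Ab1 and 0 were called, likewise without any 1 of the pia or dura libraries, and the dura calls ended without either dura library. In Macro_2, 0 of 10 members were called in either contrast (0.114% and 0.424% of genes called; DESeq2 also called 0), with Cd74 at 1.14 (SE 0.63) and 1.19 (SE 0.64). At an unadjusted p below 0.05 by edgeR, 3 members in pia (Ciita, H2-Oa and H2-DMb2) and 2 in dura (Ciita and H2-Oa) were below brain in Macro_2. Over all genes, in either direction, this p was reached by 1137 of 9666 in pia and 1266 in dura. Brain there joins both barcode sets. Ciita was 183 and 195 CPM in the 2 brain libraries of the other set, against 64.6 and 18.9 in control brain and brain 24 h replicate 1. H2-Oa was 68.3 and 150 against 16.1 and 12.6 CPM, and H2-DMb2 was 81.6 and 63.9 against 48.4 and 171. The part of the set was not tested.

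Several measures moved with this difference. Background in Tc was 39.5 to 425 CPM in brain and 2117 to 5715 in pia and dura. In CAM_1 the summed level of 7 macrophage markers was 5826 to 48338 CPM in brain, where 5 to 7 of them were detected, and 64745 to 82183 in pia and dura, and microglial markers ran the other way as given above. When the tissue difference of CAM_1 was taken relative to that of Tc in the same libraries, a fit added after seeing the data, edgeR called 0 members in pia (1.68% of 8398 genes called) and 0 in dura (2.92%). Cd74 was then -1.07 (SE 0.66) in pia and 0.75 (SE 0.71) in dura, and H2-Ab1 and H2-Aa in dura were at 1.88 (SE 0.91) and 2.10 (SE 1.05), each at an unadjusted p below 0.05. H2-Ob in pia and H2-Oa and H2-Ob in dura had an unadjusted p below 0.05 in the other direction. Over all genes, 919 of 8398 in pia and 1351 in dura reached that p by edgeR. In CAM_2 relative to Tc, Cd74 (-2.57, SE 0.45) and H2-Eb1 (-3.88, SE 0.96) were called lower in pia (0.396% of genes lower). In dura 0 were called (1.62%), while 3 had an unadjusted p below 0.05 by edgeR, beside 824 of 7826 genes. With the 6 libraries the same 4 fits called 0 members (2.43%, 4.74%, 2.80% and 3.80% of genes, in the order CAM_1 pia and dura, CAM_2 pia and dura). The fit relative to Tc compares fold differences and cannot take away a level added to every cluster. Its base in brain was also small, with 1 UMI of Cd74 and 0 of H2-Ab1 in Tc of control brain. The part of each of these measures in the tissue difference of CAM cells was not tested.

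Cell by cell, CAM_1 of dura passed the Tc level more often than CAM_1 of pia. After thinning to 1000 UMIs the median CAM_1 cell of dura had 9 (control) and 7.5 UMIs (24 h) of the 4 genes, against 2 in Tc of both. Above the 99th percentile of Tc lay 46.0% of 189 CAM_1 cells in control dura (38.8 to 53.4%) and 38.5% of 296 at 24 h (32.9 to 44.3%). In pia the medians were 3 and 2 against 2 and 1 in Tc, and 0 of 552 and 15 of 787 cells passed the Tc percentile, which the highest T cells set at 101 UMIs in control pia and 35 at 24 h. The 90th percentile of CAM_1 in pia was 26 and 15 UMIs, against 6 and 3 in Tc. In the brain libraries the median CAM_1 cell had 0 UMIs of the 4 genes.

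With the 6 libraries of a single barcode set, the same 4 genes were called higher in CAM_1 in pia (13.7% of 7749 genes higher) and dura (15.1%), and also in CAM_2 in both (11.3% and 10.2% of 4517 genes). H2-Oa was called lower in CAM_1, by 4.49 in pia and by 3.12 in dura on the log2 scale (10.3% and 12.2% of genes lower). Its level in CAM_1 was 36.7 CPM in control brain and 22.0 in brain 24 h replicate 1, against 0 to 3.75 CPM in the pia and dura libraries. In Macro_2, H2-Aa was at 0.72 in pia (SE 0.21, adjusted p = 0.0375) and 0.93 in dura (SE 0.21, adjusted p = 0.00243) in this edgeR fit, short of 2-fold. H2-DMb2 was called lower in pia by a log2 difference of -1.62 (0.709% of genes lower), from 3 UMIs in control brain and 27 in brain 24 h replicate 1. In dura 0 members were called (3.53% of genes called), while 5 had an unadjusted p below 0.05 by edgeR, beside 1127 of 7762 genes.

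At 24 h after MCAO against control, with tissue in the model, 0 members were called in any of CAM_1, CAM_2, Macro_2, mDC1, mDC2, Bc and Micro_1 when all libraries entered. The percentages of all genes called were 0, 0.0154, 0.0207, 0.806, 1.54, 0.374 and 0, and DESeq2 also called 0 members. In mDC1, mDC2 and Bc, control brain had 5, 15 and 7 cells and brain 24 h replicate 1 had 22, 29 and 7. Those sums were left out, so the 24 h difference in these 3 clusters rests on pia and dura alone. Their fits with a single set use only those pia and dura libraries. At an unadjusted p below 0.05 by edgeR, H2-Eb1 in CAM_1 (-0.99, SE 0.41) and H2-Eb1, H2-Ob, H2-Oa and Ciita in mDC2 were below control. Over all genes, in either direction, this p was reached by 449 of 8718 in CAM_1 and 862 of 6603 in mDC2. The estimates in mDC2 were small for the binding chains, at -0.20 (SE 0.12) for H2-Aa and -0.35 (SE 0.12) for H2-Eb1.

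With the 6 libraries of a single set, 1 member was called lower at 24 h in each of 2 macrophage clusters, Ciita in Macro_2 and H2-Eb1 in CAM_1. In Macro_2 Ciita fell by 1.13 on the log2 scale (SE 0.33, adjusted p = 0.0269 by edgeR; 1.17% of genes lower), on 3 to 47 UMIs a library. H2-Eb1 was at -0.84 (SE 0.18, adjusted p = 0.00160), H2-Aa at -0.63 (SE 0.17, adjusted p = 0.0143) and H2-Ab1 at -0.62 (SE 0.17, adjusted p = 0.0159) in the same edgeR fit, past the p threshold and short of 2-fold. Cd74 was at -0.45 (SE 0.17, adjusted p = 0.106). All 10 members had negative estimates, with a median of -0.54 beside 0.02 over 7762 genes.

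Within the 6 libraries, the ratio of 24 h to control in Macro_2 was below 1 in each tissue for every member except H2-DMb2. On the log2 scale H2-DMb2 was at 1.82 in brain replicate 1 (3 UMIs in control), 0.22 in pia and -0.67 in dura. The brain ratio of H2-Oa rested on 2 UMIs at 24 h and 1 in control. In brain replicate 2, of the other set, Ciita (183 CPM), H2-Oa (68.3) and H2-DMb2 (81.6) lay above control brain (64.6, 16.1 and 48.4). The remaining members lay below control brain there. For H2-Oa and H2-DMb2 in replicate 2 the counting interval held 0. H2-Eb1 at 24 h over control was -1.40 in brain replicate 1 (95% counting interval -1.58 to -1.21), -0.61 in pia (-0.65 to -0.57) and -0.40 in dura (-0.44 to -0.36) on the log2 scale. Cd74 was -0.85, -0.26 and -0.12, and H2-DMb1 was -0.18, -0.24 and -0.02, with the interval holding 0 in brain and dura. With 1 library on each side in pia and dura, these intervals cover counting error only, and the difference between tissues was not tested.

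The brain value rested on few cells that differed among themselves. After thinning to 1000 UMIs the 31 Macro_2 cells of control brain had a median of 150 UMIs of the 4 genes and a 10th percentile of 80. The 55 cells of brain 24 h replicate 1 had a median of 67, a 25th percentile of 8.5 and a 10th percentile of 0, and 41 of them (74.5%) lay above the 99th percentile of Tc, against 31 of 31 in control brain. The summed macrophage markers of Macro_2 fell from 52404 CPM in control brain to 18170 in brain 24 h replicate 1. They also fell in pia, from 60369 to 49528 CPM, but rose in dura, from 57856 to 62672. The part of these markers was not tested.

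**Figure D5:**
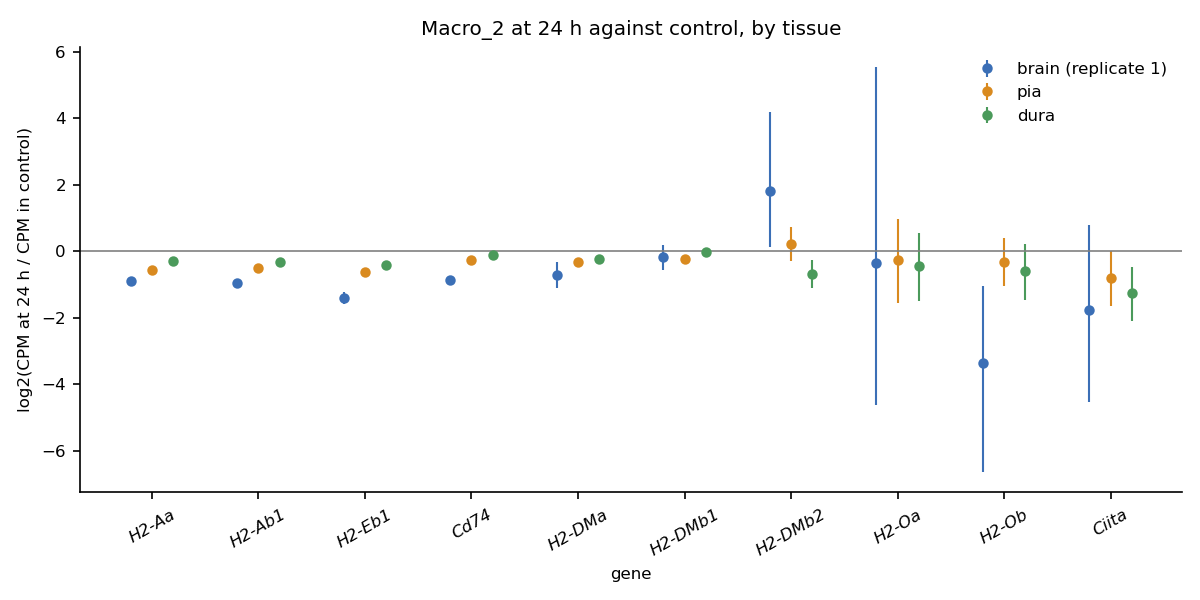
Log2 ratio of CPM at 24 h to CPM in control for each member in Macro_2, by tissue, within the 6 libraries of a single barcode set; bars are 95% counting intervals and the line marks no difference. For H2-Aa, H2-Ab1, H2-Eb1 and Cd74 the brain point lies lowest and the dura point nearest to 0, and the bars of H2-DMb2, H2-Oa, H2-Ob and Ciita in brain are wide.

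In CAM_1 the same fit called H2-Eb1 lower, by 1.06 on the log2 scale (SE 0.23, adjusted p = 0.0144 by edgeR; 2.44% of genes lower). H2-Eb1 fell from 299 to 121 CPM in pia and from 791 to 467 in dura. In brain it was 13.1 CPM in control (5 UMIs) and 6.00 in replicate 1 at 24 h (9 UMIs), and the counting interval of the ratio held no difference. H2-Aa was at -0.85 (SE 0.24, adjusted p = 0.0421) and Cd74 at -0.28 (SE 0.25, adjusted p = 0.538). Tc background fell in the same direction in pia and dura, from 5715 to 2361 and from 3029 to 2117 CPM for the 4 genes, and its part was not tested. No member was called in CAM_2, mDC1, mDC2, Bc or Micro_1 of the 6 libraries (4.52%, 1.47%, 1.34%, 0.165% and 1.48% of genes called). At an unadjusted p below 0.05 by edgeR, 5 members in CAM_2, 1 in mDC1 (H2-Ob), 4 in mDC2 and 2 in Micro_1 (H2-Aa and H2-Ob) were lower. Over all genes, in either direction, this p was reached by 993 of 4517 in CAM_2, 536 of 5379 in mDC1, 715 of 4786 in mDC2 and 847 of 6086 in Micro_1.

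Between dura and pia, class II levels were compared in Bc, mDC1 and mDC2. H2-DMb1 was lower in Bc of dura than of pia by 1.04 on the log2 scale (SE 0.32, adjusted p = 0.0325 by edgeR; 1.29% of 4809 genes lower). H2-Eb1 at -0.93 (SE 0.16, adjusted p = 7.99e-07), H2-Aa at -0.81 (SE 0.18, adjusted p = 0.000388) and H2-Ab1 at -0.78 (SE 0.18, adjusted p = 0.000548) were short of 2-fold, and all 10 members were below 0, with a median of -0.57 beside 0.09 over all genes. H2-DMb1 in Bc was 521 CPM in control pia (39 UMIs) and 133 at 24 h (10 UMIs), against 80.7 in control dura and 133 at 24 h. For this gene the tissues thus differed in the controls and were alike at 24 h. H2-Aa in Bc was 8375 CPM in control pia and 4491 at 24 h, against 2163 in control dura and 3155 at 24 h. The 60 and 48 B cells of pia are few. With the 4 libraries of a single set, edgeR called 0 members (2.48% of genes called). In that edgeR fit 6 members had an unadjusted p below 0.05, beside 439 of 2420 genes. H2-DMb1 also lost its call without brain 24 h replicate 2 (adjusted p = 0.228) and in DESeq2 (adjusted p = 1.000). In mDC1 and mDC2, 0 members were called between dura and pia (1.88% and 0.348% of genes called; 2.96% and 0.167% with a single set), with Cd74 at 0.01 (SE 0.22) and 0.15 (SE 0.11). No member there had an unadjusted p below 0.05, and DESeq2 called 0.

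Brain at 72 h was set against brain 24 h replicate 2, the only other library of its set, with 1 library each and therefore no test. A 2-fold difference in members with at least 20 UMIs over both served as description. In CAM_1, H2-Aa, H2-Ab1, H2-Eb1 and Cd74 were higher, 4 of 6 members (14.4% of genes higher), with Cd74 at 963 against 141 CPM (6.81-fold, 95% counting interval 2.26 to 3.32 on the log2 scale). In SAMC, the cluster the authors named stroke-associated myeloid cells, the same 4 of 6 were higher (12.2%), with Cd74 at 468 against 148 CPM. In mDC1, H2-Ab1, H2-Eb1, H2-Oa and H2-Ob were higher, 4 of 10 (5.35%), with H2-Eb1 at 11440 against 5108 CPM and H2-Oa at 354 against 120.

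Macro_2 had 1 of 10 members higher (H2-Oa, 150 against 68.3 CPM; 5.95% of genes higher) and Bc 1 of 10 (H2-DMb2, 578 against 249 CPM; 2.95%). CAM_2, mDC2 and Micro_1 had 0 (7.77%, 5.77% and 8.10%). The smaller microglial clusters Micro_2, Micro_3 and stress_Micro had 5 of 8, 2 of 6 and 3 of 5 (4.42%, 4.93% and 6.53%). In none of the 12 clusters was a member at least 2-fold lower, where 4.38% to 23.9% of genes were. Tc rose as well, with 4 of 4 members higher (2.89% of genes) and the 4-gene sum at 425 against 39.5 CPM, a factor of 10.8. The corresponding factor was 9.50 in CAM_1, 5.37 in SAMC, 1.81 in mDC1 and 1.30 in Macro_2. As factors, those of CAM_1 and SAMC were no larger than that of Tc, whose 24 h level was low (3 UMIs of Cd74). In CPM they were larger. Cd74 went from 141 to 963 CPM in CAM_1, from 148 to 468 in SAMC and from 10.8 to 186 in Tc. The part of background in these differences was not tested.

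SAMC carried little class II in brain. The 4-gene sum was 660 and 168 CPM in brain 24 h replicates 1 and 2, 904 in brain at 72 h and 12566 in pia at 24 h, where Tc had 2361. It was above Tc in 4 of 4 libraries, by 1.85-fold to 5.32-fold, and the pia library alone lay far from the rest. By gene, Cd74 was above Tc in 4 of 4. H2-Aa, H2-Ab1 and H2-Eb1 were each above Tc in 2, and the counting interval held 1 in the other 2. Macro_2 of the same libraries held 73949, 37112, 48173 and 113550 CPM.

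Genes outside the list that followed the 4-gene sum were ranked by Spearman's correlation over 112 sums of library and cluster, among 5836 genes with at least 20 CPM on average. The sums share libraries and depth, and the values describe likeness only. The nearest were Cd209a and Cd40 (0.80 each), Gm6377 and Tnfsf9 (0.77 each), and Ms4a4c and Mgl2 (0.75 each). Cd40 is the receptor for T cell help on antigen-presenting cells, and Cd209a and Mgl2 encode lectins of dendritic cells and macrophages. Of the members, Cd74, H2-Ab1, H2-Aa and H2-Eb1 stood at 0.92 to 0.99 as parts of the sum, H2-DMb1 at 0.76, H2-DMa at 0.72, Ciita at 0.63, H2-DMb2 at 0.62, H2-Ob at 0.39 and H2-Oa at 0.26. Over the 25 macrophage sums the nearest genes were Clec12a (0.89), Clec4b1 (0.88), Mcub and Arhgap15 (0.87 each). With the 6 libraries of a single set the order changed. Over 77 sums Id3 stood at 0.80, Cd209a at 0.79 and Cd40 at 0.78. Over the 18 macrophage sums Tmem123 stood at 0.92, Clec4b1 at 0.91, Clec12a at 0.88 and Arhgap15 at 0.87, and Mcub was not among the 10 nearest genes.

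A list of 30 further genes of the pathway covered its transcription factors, interferon-gamma signalling, proteases and costimulatory partners. With all libraries, between pia and brain in CAM_1, 2 of the 26 tested were higher, Cd40 by 5.27 (SE 0.70) and Cd83 by 3.43 (SE 0.58) on the log2 scale, and 0 were lower, with a list median of -0.14 beside -0.12 over all genes (2.41% of genes higher). Cd83, which stabilizes class II at the cell surface, was also higher in Macro_2 of pia (3.35, SE 0.58) and dura (2.84, SE 0.57), where no member was called with all libraries. Irf1, an interferon-induced activator of Ciita, was higher in CAM_1 of dura by 2.64 (SE 0.43). Rfx5, the X box factor, was not among the genes called.

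With the 6 libraries more of the list was called, in both directions, and so were more genes overall. In CAM_1 of pia 4 of 24 tested were higher, led by Cd40 (5.61, SE 0.57), Cd83 (3.09, SE 0.30) and the costimulatory ligand Cd80 (2.35, SE 0.36), and 4 were lower, led by the protease Ctsl (-1.27, SE 0.26) and the interferon-gamma receptor chain Ifngr1 (-1.23, SE 0.24), beside 13.7% of genes higher and 10.3% lower. In CAM_1 of dura 4 of 24 were higher and 4 lower, with Irf1 at 2.73 (SE 0.30) and Ctsl at -1.69 (SE 0.27), beside 15.1% and 12.2% of genes. In CAM_2, where members were higher, more of the list was lower than higher, with 1 of 18 higher and 6 lower in pia (11.3% and 9.03% of genes) and 2 higher and 5 lower in dura (10.2% and 9.05%). Ctsl was at -1.69 (SE 0.28) and -2.31 (SE 0.30) there, and the protease Ctss, which cleaves the invariant chain, at -1.26 (SE 0.37) and -1.25 (SE 0.37). In Macro_2 of pia Cd83 was higher (2.94, SE 0.24) and Ctsl lower, 1 of 27 each way beside 2.07% and 0.709% of genes. In Macro_2 of dura 3 of 27 were higher, Cd83 (2.41, SE 0.23), Irf1 (1.87, SE 0.52) and Ifngr2 (1.13, SE 0.34), and Ctsl was lower (-1.07, SE 0.29), beside 2.64% and 0.889% of genes.

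At 24 h with all libraries, 2 of the 26 tested list genes were called in mDC2, Cd86 higher by 1.12 (SE 0.22) and Irf1 at -1.32 (SE 0.33), and 0 in the other clusters. Among the list genes reported here, calls with the 6 libraries went both ways. March1, a ligase that removes class II from the surface, was lower in CAM_2 (-1.41, SE 0.36; 2.10% of genes lower). Irf1 was lower in CAM_1 (-1.54, SE 0.23; 2.44%) and Macro_2 (-1.10, SE 0.22; 1.17%). Ctsl was higher in CAM_1 (1.04, SE 0.21; 2.34% of genes higher), and Cd86 was higher in mDC2 (1.10, SE 0.21; 0.481%). The list medians were -0.24 in CAM_1, -0.18 in CAM_2 and -0.18 in Macro_2, beside -0.02, -0.01 and 0.02 over all genes. Between dura and pia in mDC1 the proteases parted, with Ctsl higher by 1.80 (SE 0.39) and Lgmn lower by a log2 difference of -1.34 (SE 0.29).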

How the data were processed

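The authors counted UMIs per gene and barcode with Cell Ranger 6.0 from 10x 3′ libraries (v2 and v3 chemistry) and deposited these raw counts with an annotation of the cells that passed their filters on genes, mitochondrial share and doublets. The deposited UMAP coordinates, scores that the authors computed, were not used. The counts cover 8 libraries of 6591898 to 20754181 UMIs, and libraries are the unit of the tests. With the 6 libraries of a single barcode set, no tissue had replicate libraries at the same time. The p-values of those fits of tissue and time measure how far time differences varied between tissues, not a spread between replicates. With all 8 libraries a single pair shared tissue and time, and it crossed the barcode sets. In mDC1, mDC2 and Bc that pair was incomplete. Any of this spread may be technical. The submitters' processing notes name the mm10 genome (GRCm38). Genes were matched by identifier, and positions and promoters come from GENCODE and RefSeq annotation of that build.

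Counts were summed per library and cluster (at least 30 cells) and fitted with edgeR 4.0.16 (TMM, filterByExpr, quasi-likelihood test) in R 4.3.3 with terms for tissue and time. Adjusted p-values run over all genes tested. CPM values carry exact Poisson intervals and shares exact binomial (Clopper-Pearson) intervals at 95%, which cover counting error only; a count of 0 allows up to 3 counts. Cells were thinned to 1000 UMIs for comparisons of shares, and 0.5 UMIs were added to each library for the 72 h fold. Genes were named if they were members, if called in the list of 30 (1 of its genes is not reported here), or if among the 10 nearest by correlation. The members and lists were chosen with earlier results of these data known. H2-Ea was not analysed here, and RNA of H2-Eb1 alone does not show that I-E was formed. Scripts were tested on simulated data. Alternatives were DESeq2 1.42.0, other scaling, filters, thinning and leaving out libraries.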

Additional observations from a re-analysis of the deposited data

Results flagged for a closer look

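The summed level of H2-Aa, H2-Ab1, H2-Eb1 and Cd74 moved in opposite directions at 24 h in different tissues for 4 clusters. The difference between tissues was not tested, since each tissue had a single control library. In Bc the log2 ratio of 24 h to control was -0.69 in pia and 0.58 in dura. In CAM_2 it was 0.66 and 1.58 in brain replicates 1 and 2, -0.77 in pia and -0.28 in dura. Replicate 2 was of the other barcode set than control brain. In mDC1 the ratio was -0.33 in pia and 0.10 in dura, and in mDC2 -0.31 and 0.07. By gene in mDC2 of dura, Cd74 was at 0.10 and H2-Aa at 0.06, whereas H2-Ab1 was at -0.03 and H2-Eb1 at -0.14.

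Barcodes outside the authors' annotation, which entered no comparison, held 4243 CPM of the 4 genes in brain 24 h replicate 1 and 9787 in brain at 72 h, against 2839 in control brain. Brain at 72 h was of the other barcode set than control brain. In brain 24 h replicate 2, pia at 24 h and dura at 24 h these barcodes did not exceed those of the control of the same tissue.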

How the results depend on the processing

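No called result changed direction among the alternatives compared. Among tested members, called or not, the number with a negative estimate did change with the 6 libraries of a single barcode set: at 24 h from 9 to 5 of 9 in Micro_1, from 9 to 10 of 10 in Macro_2 and from 6 to 8 of 10 in mDC1, and for dura against pia in mDC1 from 1 to 3 of 10. Relative to Tc, a different quantity, Cd74 in CAM_2 of pia was at -2.57 in place of 3.07. For counts of members and mean levels, 264 alternative values stayed on their side of the threshold or close to the reported value, 12 passed it newly, 17 lost it and 7 moved. For single genes these were 282, 24 and 38. A mean level counted as close when it moved by less than its standard deviation across libraries. That deviation exceeded the mean in SAMC (6002 against 3575 CPM), CAM_1, CAM_2 and Micro_1. In these clusters a fall could therefore not count as moved. With the 6 libraries of a single barcode set, chosen after seeing the data, the members called at 24 h were 1 in CAM_1 and 1 in Macro_2 in place of 0; for pia against brain 4 in CAM_2 in place of 2 and 1 in Macro_2 in place of 0; for dura against brain 4 in CAM_2 in place of 2; for dura against pia in Bc 0 in place of 1; and for pia in CAM_2 relative to Tc 0 in place of 2. Leaving out brain 72 h and dura 24 h, listed by the study as kit version 3 (the set apart by barcodes was brain 72 h and brain 24 h replicate 2), gave 0 for pia and 0 for dura in CAM_2, and 0 for dura in CAM_1 in place of 4. With library size alone the count for pia in CAM_2 was 0. With no filter on low counts, or with thinned cells, Macro_2 had 1 for pia and 1 for dura. For Bc, DESeq2, library size alone and no filter each gave 0, and no minimum fold gave 4. The cause of these changes was not tested.

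Leaving out single libraries gave 0 to 1 at 24 h in CAM_1 and in Macro_2 (1 without brain 24 h replicate 2), 3 to 6 for pia in CAM_1, 0 to 5 for pia and 0 to 4 for dura in CAM_2, 0 to 3 for pia and for dura in Macro_2 (3 without brain 24 h replicate 1, and for pia 1 without brain 24 h replicate 2), 1 to 5 for dura in CAM_1 (1 without dura at 24 h, 5 without brain 24 h replicate 2) and 0 to 1 for Bc (0 without brain 24 h replicate 2). In CAM_2 the pia count was 0 without control brain, either pia library or either dura library, 1 without brain at 72 h and 5 without brain 24 h replicate 2, and the dura count was 0 without either dura library and 4 without brain 24 h replicate 2. The mean 4-gene level of SAMC was 578 CPM without pia at 24 h and at most 4710.

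No paired analysis was possible because the groups compared share fewer than 2 replicate numbers. With 1 library for most groups, the tests rest on 1 to 3 residual degrees of freedom.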

Other observations

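Some sums outside the main antigen-presenting clusters were high in pia and dura. Stress_Myeloid held 126466 CPM of the 4 genes in control pia and 89132 in pia at 24 h, against 1185 in brain 24 h replicate 2, from 30, 35 and 45 cells. Granulo_1, named for granulocytes, held 30956 CPM in control pia and 22005 in control dura, against 2598 in brain 24 h replicate 1 of the same barcode set. Brain 24 h replicate 2 and brain at 72 h, of the other set, had 1622 and 1647 CPM. Cd74 alone in Granulo_1 was 23372 CPM in control pia and 8942 at 24 h, and 16602 in control dura and 10968 at 24 h. Micro_3 held 29377 CPM in the 39 cells of control pia and 166 to 603 CPM in the brain libraries. Cd74 alone in Micro_3 was 22593 CPM in control pia and 3857 in pia at 24 h.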
